A study of Homo sapiens with 16 samples.

Results

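The genes described here are the mitochondrial ribosomal protein genes, taken as every protein-coding row of the deposited count table whose symbol is MRPL or MRPS followed by digits and an optional letter, with pseudogenes left out. The rule found 78 genes of 58787 gene rows, spread over 21 chromosomes. Of the 78 proteins, 51 sit in the large subunit of the mitochondrial ribosome, MRPS30 and MRPS18A among them despite their names, and 26 sit in the small subunit. The remaining gene, MRPS36, encodes a subunit of the 2-oxoglutarate dehydrogenase complex.

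Mitochondria translate the messenger RNAs of their own genome on a dedicated ribosome, whose RNA is made inside the organelle and whose proteins are all encoded in the nucleus, translated in the cytosol and imported. Its products are core subunits of the respiratory chain and of ATP synthase. Some of its proteins descend from bacterial ribosomal proteins and others were added in eukaryotes.

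The study measured RNA from IMR32 cells, a human neuroblastoma line with an amplified MYCN gene, after knockdown of TPX2, a spindle assembly factor that binds and activates Aurora A kinase. Each of 3 siRNAs against TPX2 (si45, si46 and si47) was used on 4 cultures that the design text calls biological replicates, and 4 further libraries carried the control siRNA (siNTC). The column names give 48 h for all 16 libraries, and the labels name no genetic change other than the knockdown. All libraries come from 1 cell line, so no result extends beyond it. Libraries were prepared from transcript 3' ends, so a gene's count is not divided by its length and levels of different genes are compared here as CPM, the 3' end counts scaled to a common library size.

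Total counts ran from 5318159 to 7864343 per library. TPX2 was at 297 to 359 CPM in the 4 siNTC libraries and at 62.2 to 121 CPM in the 12 knockdown libraries, which left 27.98%, 24.95% and 21.83% of the control mean under si45, si46 and si47 (two-sided exact permutation test, p = 0.0286 for each, the smallest that 4 against 4 libraries allow, and 0.0286 after Benjamini-Hochberg adjustment over the 3 tests). One library, si45 replicate 3, stood apart with the highest TPX2 level of its group. Summed markers of adrenergic neuroblastoma cells lay between 5743 and 7168 CPM in every library, against 55.6 to 108 CPM for mesenchymal markers, 1.86 to 9.65 CPM for epithelial markers and 0 to 3.70 CPM for haematopoietic markers, of which CD3E and HBB had no count.

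Together the 78 genes took 0.570% to 0.650% of all counts. Their share averaged 0.609% ± 0.0266 (SD, n = 4) in siNTC, 0.623% ± 0.0259 under si45, 0.601% ± 0.0236 under si46 and 0.612% ± 0.0123 under si47. All 3 knockdown groups overlapped the controls, and the differences were smaller than the spread between replicates (two-sided exact permutation test, p = 0.486, 0.686 and 0.8, each 0.8 after Benjamini-Hochberg adjustment over the 3 tests). A share of counts in bulk RNA is relative to all other transcripts, and fewer cells of a type and less RNA per cell cannot be told apart in it.

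The genes spanned a wide range of levels in control cells. Among the 76 that passed the low-count filter, the median siNTC level was 58.1 CPM, against 19.6 CPM over all 14193 genes tested, and 59 of them lay between 20 and 200 CPM. Small subunit genes had a median of 77.7 CPM over 26 genes and large subunit genes one of 49.8 CPM over 49. The 48 genes with a bacterial counterpart had a median of 57.2 CPM, and the 28 tested genes without one had a median of 65.3 CPM. Between the 4 siNTC libraries, the coefficient of variation of a gene was 11.3% in the median and ranged from 1.18% for MRPL52 to 40.2% for MRPS24.

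**Figure D1:**
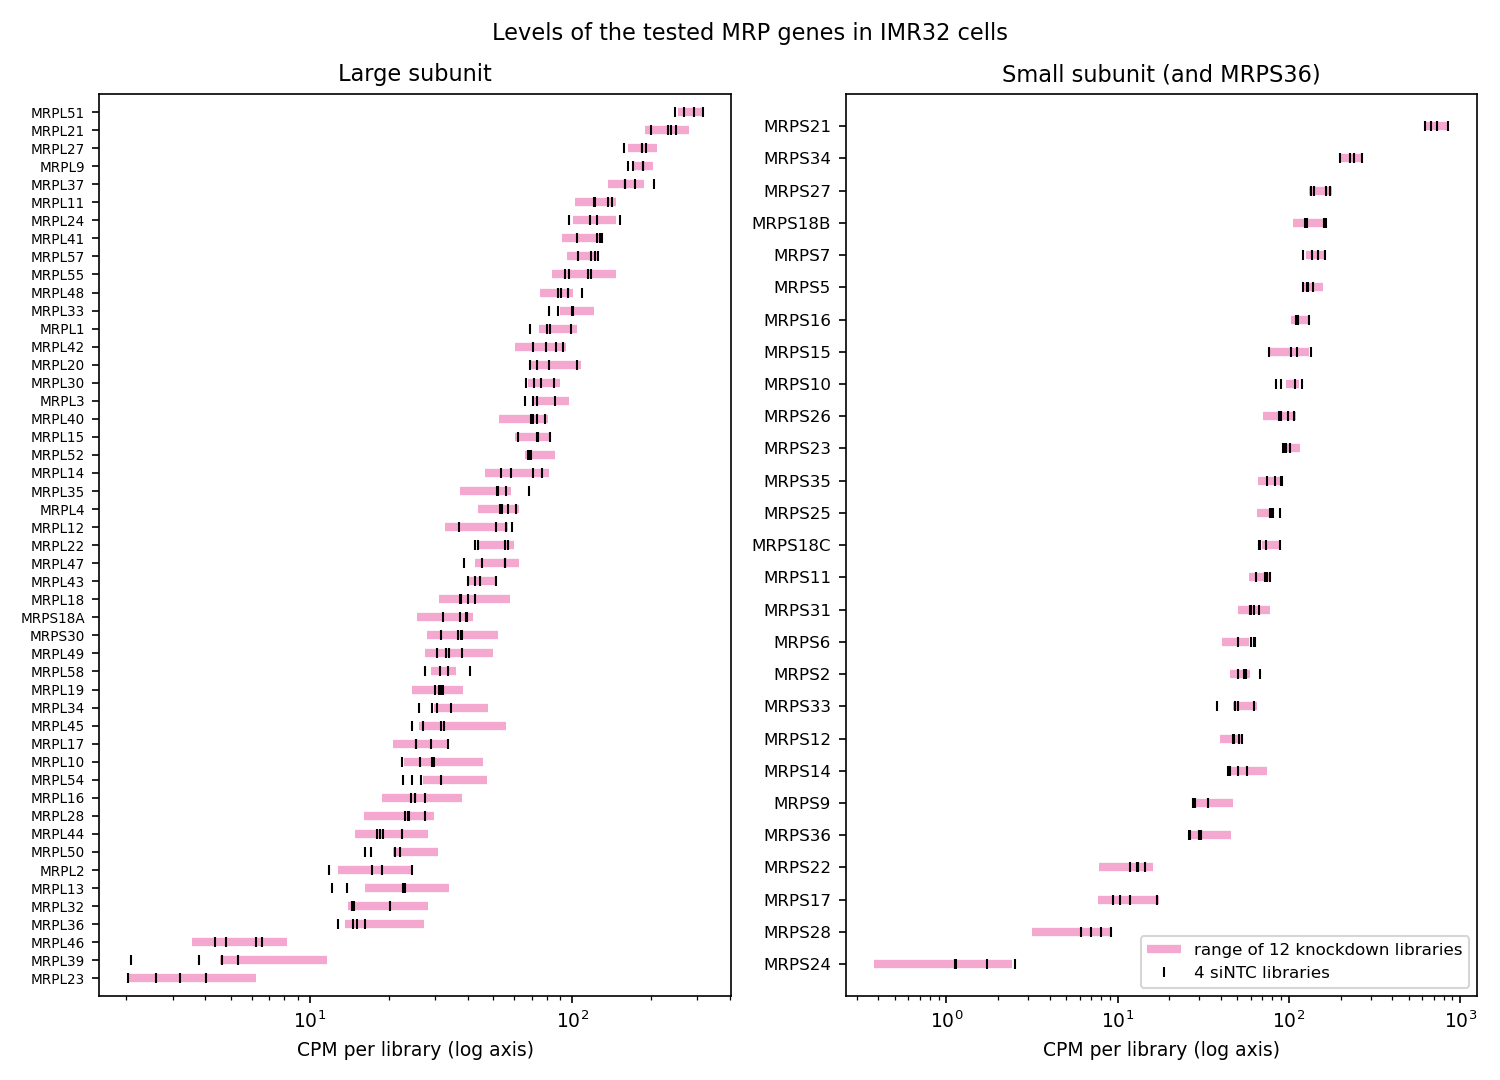
CPM of the 76 tested genes on a log axis, ordered by their siNTC mean, with large subunit genes on the left and small subunit genes and MRPS36 on the right. Black ticks are the 4 siNTC libraries and pink bars the range of the 12 knockdown libraries, which covers or touches most control values. MRPS21 stands highest and MRPS24 lowest, with siNTC means of 718 and 1.62 CPM.

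MRPS21, a small subunit protein with a bacterial counterpart, was the most abundant of them. Its level was 621.0, 673.5, 731.9 and 846 CPM in siNTC, 664.5, 704.5, 726 and 817 CPM under si45, 629.7, 622, 818 and 739 CPM under si46, and 707, 681.5, 856 and 739.6 CPM under si47. The 4 groups lay over one another, and the mean log2 fold change of the 3 siRNAs was 0.01 (SE 0.0807, 95% interval -0.15 to 0.18). This gene alone held 10.5% to 13.4% of the counts of all 78.

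Next in level came MRPL51 with a siNTC mean of 279 CPM ± 29.5 (SD, n = 4), MRPS34 with 234 ± 28.4, MRPL21 with 230 ± 20.8 and MRPL27 with 179 ± 15.0. MRPL21 and MRPL27 have bacterial counterparts, whereas MRPL51 and MRPS34 do not. The order among MRPL51, MRPS34 and MRPL21 is not resolved, since the ranges of their control libraries overlap. Nor is that of MRPL27, whose controls (157.4 to 191.2 CPM) overlap those of MRPL9 (163.8 to 186.7 CPM) and MRPL37 (158.5 to 204.2 CPM), both named after their values were seen. The log2 fold changes over the 3 siRNAs were 0.02 for MRPL51, -0.04 for MRPS34, 0.02 for MRPL21 and 0.06 for MRPL27, and none passed the test.

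Low counts among these genes went with crowded 3' ends. In GENCODE v29, 6 of the 78 genes share at least 50% of their last 300 exonic bases with another gene on the same strand, and 5 of the 7 genes with a mean count under 50 are among those 6. MRPL53 had no count in any of the 16 libraries, while CCDC142, which covers 89.0% of the end of MRPL53, averaged 298 counts. MRPL38 averaged 4.75 counts and MRPS24, whose end is wholly covered by the readthrough gene URGCP-MRPS24, averaged 9.13. The partners of MRPL38, MRPL46, MRPS24 and MRPS28 were all listed at 0. MRPL33 had 618 counts with a 100% overlap with BABAM2. The last 300 bases are taken from all annotated exons of a gene together, so they follow its furthest annotated end. For MRPL33 the annotation spans chr2:27771717-27988087 with 1539 exonic bases. Whether its reads, or those of the other genes, come from these last bases was not tested. The other 2 genes under 50 counts, MRPL23 with 20.5 and MRPL39 with 40.75, have no such overlap, and the genes without one had a median of 359 counts. How reads shared by overlapping genes were counted is not given in the sources used here, so the low values of these genes are uncertain as levels, and the part of the overlaps in them was not tested.

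**Figure D2:**
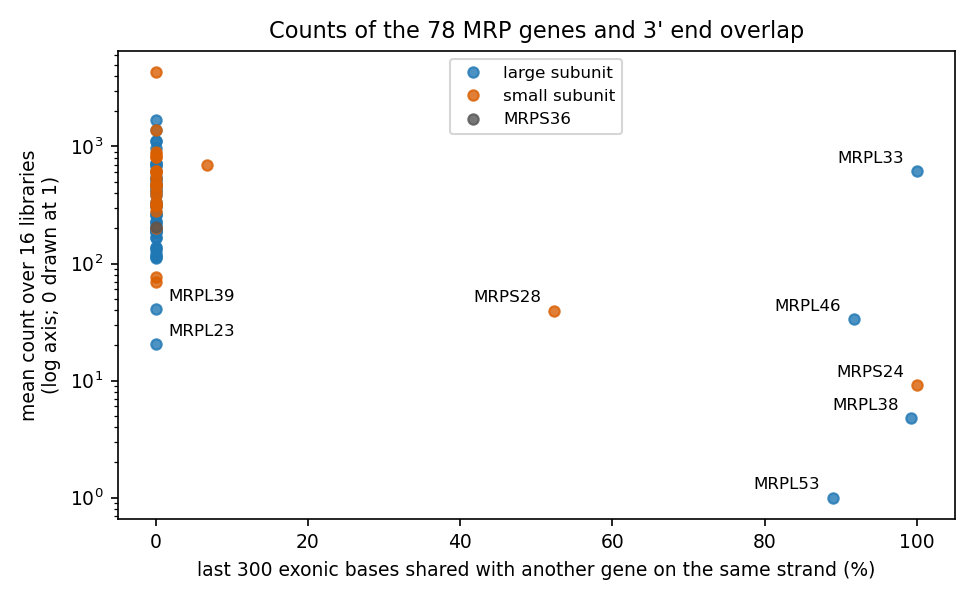
Mean count over 16 libraries on a log axis (0 drawn at 1) against the percent of the last 300 exonic bases that another annotated gene shares on the same strand, for all 78 genes. Of the 6 genes at or above 50%, 5 lie under 50 counts, and MRPL33 lies at 618.

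Few counts were assigned to the annotated pseudogene copies of these genes. The table holds 79 rows for MRP pseudogenes that derive from 36 of the 78 genes, and 60 of these rows were at 0. Their counts summed to 0.157% of those of the 78 genes. How reads that match several genes were handled is not given in the sources used here. These counts therefore cannot show how many reads the 78 genes lost to such copies. Only MRPS18CP7, MRPS31P5 and MRPS31P4 had enough counts to be tested, and none passed the test for the mean of the siRNAs or under any single siRNA.

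Promoters were examined for what the genes share in sequence. RefSeq windows on GRCh38.p14, from 250 bases before to 50 bases after the start, matched 69 of the 78 genes by symbol. MRPL2, MRPL10, MRPL13, MRPL15, MRPL21, MRPL23, MRPL35, MRPS28 and MRPS36 had no entry. The letters AAGATGGC, known as a YY1 motif, were present on either strand in 20 of the 69 promoters (29%), against 3.03% of all 27305 promoters in the table and 5.66% of the 9617 found for protein-coding genes tested. The ETS motif CCGGAAGT, as bound by GABPA, was in 11 (15.9%), against 4.44% and 9.3%. The NRF1 core GCATGCGC was in 6 (8.7%), against 3.27% and 5.72%, and the E-box CACGTG, as bound by MYC proteins, was in 6 (8.7%), against 7.43% and 10.4%. In 15 of the 20 promoters with the YY1 letters a match lay wholly after the start, as it did in 364 of the 544 promoters of tested protein-coding genes that hold them. A match is a description of the letters, not a site shown to be used.

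In those 15 promoters the first base of the YY1 match fell between positions 7 and 36, counting the start as 1. Of the genes whose values are given here, MRPL32 (first base at -222), MRPL38 (7) and MRPL52 (-98 and -64) hold the letters but are not shown. Windows of 30 bases around the match are shown for 6 others. Capitals mark the motif or its reverse complement, and the windows are read 5′ to 3′ on the strand of each gene. They lie at chr5:1799854-1799883 for MRPL36, chr9:101398577-101398606 for MRPL50, chr12:6493223-6493252 for MRPL51, chr6:43687764-43687793 for MRPS18A and chr7:43869480-43869509 for MRPS24 (minus strand), and at chr6:30617852-30617881 for MRPS18B (plus strand). The first base of the motif is at position 24, 22, 10, 20 and 24 for MRPL50, MRPL51, MRPS18A, MRPS24 and MRPS18B, and at position -35 for MRPL36, where the reverse complement is found.
MRPL36: ccccccccgccGCCATCTTccttcctggca
MRPL50: ggatctcatcgAAGATGGCggcgcgatctg
MRPL51: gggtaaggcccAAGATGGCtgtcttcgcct
MRPS18A: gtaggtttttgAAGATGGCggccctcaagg
MRPS18B: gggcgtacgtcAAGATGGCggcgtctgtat
MRPS24: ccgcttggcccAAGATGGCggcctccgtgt
The promoters of MRPL39, MRPL34, MRPS14 and MRPS6, the 4 genes called in a comparison with siNTC below, hold none of the 4 motifs in these windows, which says only that these letters are not there.

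Against this background, few of the genes passed the test after TPX2 knockdown. For the mean of the 3 siRNAs against siNTC, 1 of the 76 tested genes rose (MRPL39) and 0 fell at an adjusted p under 0.05 (edgeR quasi-likelihood test with Benjamini-Hochberg adjustment over all genes). Over all genes tested, 7.14% were called in this comparison, 3.61% higher and 3.53% lower. At an unadjusted p under 0.05, 15 of the 76 (19.7%) were past it, 11 higher and 4 lower, against 20.4% of all genes, which is near the background. DESeq2 called 2 genes higher and 0 lower, and limma-voom called 1 higher and 0 lower. With 1 library left out, edgeR called between 0 (without siNTC replicate 3 or 4) and 3 (without si45 or si47 replicate 3), and 2 without si45 replicate 4 or si46 replicate 3.

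Most changes for the mean of the siRNAs were small, with narrow intervals. The median log2 fold change of the 76 genes was 0.02, with quartiles of -0.09 and 0.13, against a median of 0.00 and quartiles of -0.16 and 0.17 over all genes. For 67 of the 76 (88.2%) the 95% interval lay wholly within 1.5-fold in either direction, against 57.9% of all genes, many of which have fewer counts. The 9 genes whose interval reached past 1.5-fold were MRPL13, MRPL23, MRPL32, MRPL36, MRPL39, MRPL50, MRPS24, MRPS28 and MRPS36. For them a change of that size is not excluded at this depth. Intervals were wider under the single siRNAs. Under si45, si46 and si47, 63, 63 and 55 of the 76 lay within 1.5-fold, and 13, 13 and 21 reached past it. Over all genes, 52.25%, 50.4% and 45.9% lay within it. Large subunit genes had a median of 0.06 and small subunit genes one of -0.03, a difference that was not tested. Of the 76 genes, 43 had a positive log2 fold change.

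**Figure D3:**
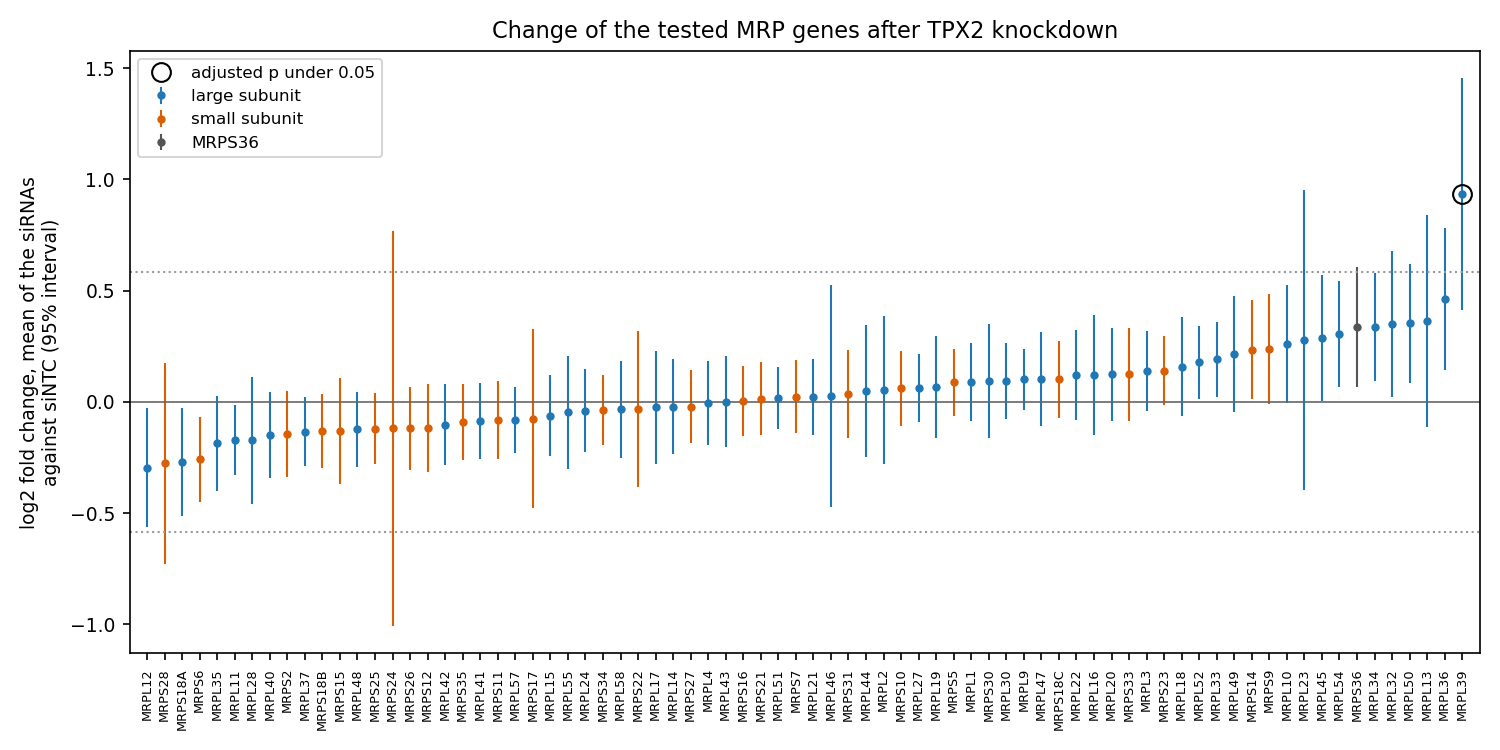
log2 fold change of each of the 76 tested genes for the mean of the 3 siRNAs against siNTC, in ascending order, with 95% intervals and with dotted lines at 1.5-fold in each direction. Intervals of 67 genes lie between the dotted lines, and the circle marks MRPL39, the gene past the adjusted threshold.

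No gene separated the groups fully. In 0 of the 76 genes did all 12 knockdown libraries lie above all 4 controls, against 1.49% of all genes, and in 0 did all 12 lie below, against 1.03%. MRPL36, MRPL39 and MRPL52 came nearest, each with 11 of 12 libraries above every control, and MRPL11 had 10 of 12 below. The share of all genes that come this near was not counted. For MRPL52, a large subunit protein without a bacterial counterpart, the controls were 69.1, 69.45, 67.7 and 68.2 CPM. Under si45 it was at 86.0, 71.4, 72.8 and 83.8 CPM, under si46 at 75.3, 66.02, 80.3 and 82.9 CPM, and under si47 at 75.9, 80.2, 77.8 and 79.6 CPM. Only si46 replicate 2 fell under the controls. Controls of MRPL52 varied least among the tested genes (coefficient of variation 1.18%), so a small rise puts a library above all of them. The log2 fold change was 0.18 (SE 0.081) with an adjusted p of 0.198, so it did not pass the test. MRPL52 and MRPL11 were singled out after their values were seen.

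MRPL39 was the gene called for the mean of the siRNAs. It encodes a large subunit protein without a bacterial counterpart and lies on chromosome 21 (chr21:25585656-25607517, minus strand, GRCh38), with no annotated gene over its exons. The controls were at 4.65, 5.32, 3.78 and 2.08 CPM. The libraries of si45 were at 9.94, 8.87, 5.89 and 8.32 CPM, those of si46 at 7.22, 6.37, 6.40 and 7.45 CPM, and those of si47 at 11.6, 6.89, 4.54 and 8.13 CPM. Every knockdown library but si47 replicate 3 lay above all controls. Counts behind these values are low, between 12 and 74 per library.

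The log2 fold change of MRPL39 was 0.93 for the mean of the siRNAs (SE 0.256, adjusted p = 0.0197). It was 1.05 under si45 (adjusted p = 0.071), 0.78 under si46 (adjusted p = 0.176) and 0.97 under si47 (SE 0.301, adjusted p = 0.034). Without siNTC replicate 4, the lowest control, the mean change was 0.73 with an adjusted p of 0.123, and without siNTC replicate 3 it was 0.91 with an adjusted p of 0.0622, so that either library ends the call. The adjusted p for the mean ranged from 0.00498 to 0.123 over all alternatives. The si47 call was lost without either of those controls, without si47 replicate 1 or 4, with limma-voom and in a fit of only the groups compared.

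MRPL36, a large subunit protein with a bacterial counterpart, had the next highest change. It was at 14.6, 16.3, 12.9 and 15.1 CPM in siNTC, at 23.75, 27.4, 17.7 and 13.6 CPM under si45, at 19.2, 20.9, 17.5 and 21.4 CPM under si46, and at 25.1, 19.96, 16.5 and 20.3 CPM under si47. All libraries of si46 and si47 lay above the controls, and si45 replicate 4 did not. For the mean of the siRNAs the log2 fold change was 0.46 (SE 0.157) with an adjusted p of 0.0653, short of the threshold. It passed with DESeq2 (adjusted p = 0.0495), and over all alternatives the adjusted p ranged from 0.0229 to 0.198.

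MRPL13, MRPL50 and MRPL32, all large subunit proteins, complete the 5 highest, with log2 fold changes of 0.36, 0.35 and 0.35 for the mean of the siRNAs. Of these, MRPL32 is matured inside the organelle by the m-AAA protease. Adjusted p-values were 0.398, 0.101 and 0.203. MRPL13 varied widely between the controls, from 12.1 to 23.1 CPM, whereas 9 of 12 knockdown libraries exceeded all controls in MRPL50.

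At the other end were MRPL12, MRPS28, MRPS18A, MRPS6 and MRPL35, with log2 fold changes of -0.30, -0.28, -0.27, -0.26 and -0.19. MRPL12 forms the stalk of the large subunit where translation factors bind. It was at 56.1, 37.1, 58.8 and 51.2 CPM in siNTC, and at 32.7 to 57.0 CPM with a median of 38.5 CPM in the knockdown libraries. The groups overlapped, since siNTC replicate 2 fell among the knockdown values, and the adjusted p was 0.186. Adjusted p-values of the other 4 were 0.528, 0.186, 0.0905 and 0.319.

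Under the separate siRNAs, si47 had the only calls in the edgeR fit of 4 group means to all 16 libraries. With si45, 0 of the 76 genes were called against 1.34% of all genes, with 6 at an unadjusted p under 0.05 (11.4% of all genes), 0 by limma-voom and 2 by DESeq2 (MRPL39 and MRPL54). Without si45 replicate 3, the library that stood apart, edgeR also called these 2 in that comparison, and 3 genes for the mean of the siRNAs (MRPL12, MRPL36 and MRPL39). With si46, 0 were called against 3.4% of all genes, with 7 at an unadjusted p under 0.05 (15.0% of all genes) and 0 by DESeq2 and by limma-voom. With si47, 4 of the 76 were called against 9.74% of all genes. This count rests on single libraries, since it was 1 without si47 replicate 1 or 4 or siNTC replicate 3 or 4, 2 without siNTC replicate 1 or 2, and 6 without si47 replicate 3. It was 2 with limma-voom and in a fit of only the groups compared. At an unadjusted p under 0.05 there were 17, or 22.4% of the 76, against 23.3% of all genes. MRPL34, MRPL39 and MRPS14 rose, against 4.91% of all genes, and MRPS6 fell, against 4.83%. The medians of the 76 log2 fold changes were 0.04, -0.00 and 0.04 under si45, si46 and si47.

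MRPL34 (chr19:17292609-17306843, plus strand), a large subunit protein with a bacterial counterpart, was at 34.6, 26.1, 30.45 and 29.3 CPM in siNTC. It was at 39.0, 29.7, 30.7 and 36.7 CPM under si45, at 38.7, 42.2, 31.1 and 44.5 CPM under si46, and at 47.8, 37.7, 33.6 and 47.1 CPM under si47. Except for si47 replicate 3, all libraries of that siRNA were above the controls. Under si47 the log2 fold change was 0.46 (SE 0.143, adjusted p = 0.0328), and for the mean of the siRNAs it was 0.34 (adjusted p = 0.0797). Without siNTC replicate 2, 3 or 4, or si47 replicate 1 or 4, the si47 call was lost, with an adjusted p of up to 0.128.

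MRPS14 (chr1:175010789-175023425, minus strand), a small subunit protein with a bacterial counterpart, was at 45.5, 43.8, 50.1 and 57.1 CPM in siNTC. It was at 59.3, 43.4, 44.4 and 57.9 CPM under si45, at 61.02, 45.5, 56.9 and 68.0 CPM under si46, and at 58.9, 74.0, 56.1 and 71.6 CPM under si47. Here si47 replicate 3 lay within the control range and the others above it. The log2 fold change was 0.41 under si47 (SE 0.132, adjusted p = 0.0441). Without siNTC replicate 1, 2 or 3, si46 replicate 1, or si47 replicate 2 or 4, and with limma-voom, the call was lost, with an adjusted p of up to 0.153. Its last 300 exonic bases lie wholly under CACYBP on the opposite strand, and whether the counting used strand is not given in the sources used here. CACYBP had 1133 to 1820 counts per library and a log2 fold change of -0.11 under si47 (adjusted p = 0.465).

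MRPS6 (chr21:34073224-34143034, plus strand), a small subunit protein with a bacterial counterpart, was at 63.0, 60.4, 50.3 and 62.3 CPM in siNTC. It was at 49.2, 46.6, 55.7 and 58.45 CPM under si45, at 52.0, 55.65, 47.8 and 45.1 CPM under si46, and at 40.7, 43.0, 47.7 and 51.6 CPM under si47. Control replicate 3 was the lowest of its group and fell within the knockdown values, while the other 3 controls were above all 12 knockdown libraries. The log2 fold change under si47 was -0.37 (SE 0.117, adjusted p = 0.0397). Without siNTC replicate 1, 2 or 4, or si47 replicate 1 or 2, with no low-count filter and in a fit of only the groups compared, the call was lost, with an adjusted p of up to 0.145. Annotated genes on the same strand, SLC5A3 among them, cover 9.6% of its exonic bases and none of the last 300, and SLC5A3 had a log2 fold change of -0.20 under si47 (adjusted p = 0.352).

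**Figure D4:**
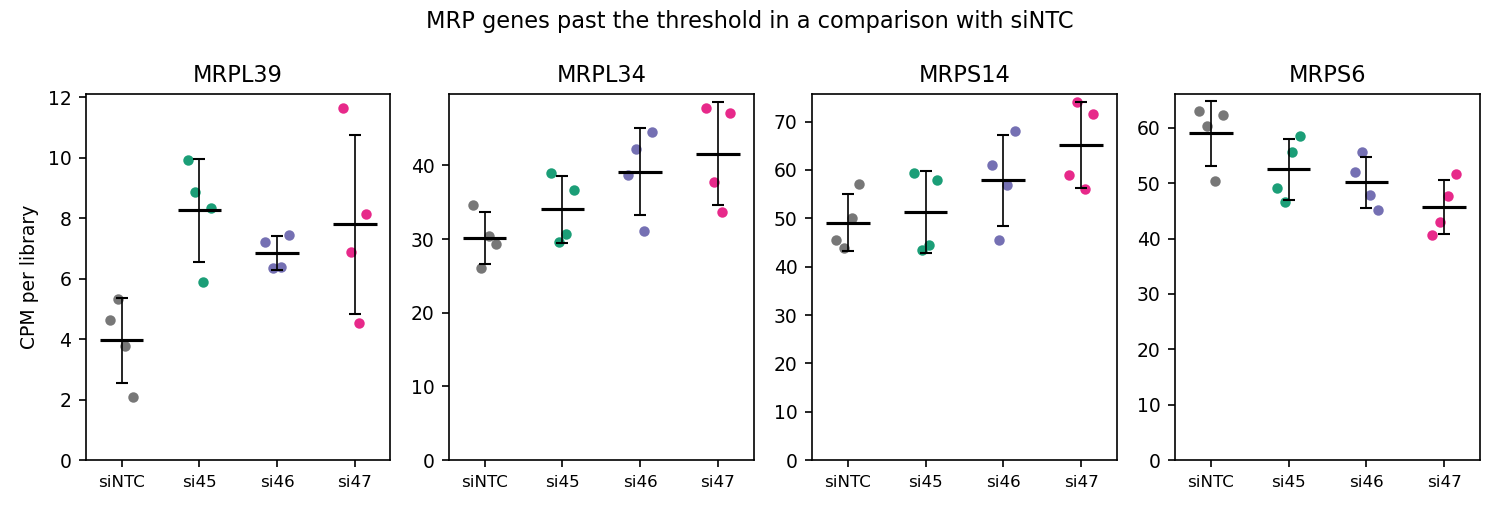
CPM of the 4 genes called against siNTC in each of the 16 libraries, with the mean and SD of each group of 4 as bars. MRPL39, MRPL34 and MRPS14 were called higher and MRPS6 lower under si47, and in each panel at least 1 si47 library lies within the control range.

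Differences between the siRNAs were tested directly. In si46 against si45, si47 against si45 and si47 against si46, 0 of the 76 genes were called by edgeR, DESeq2 or limma-voom, against 0.0282%, 0.169% and 0.0493% of all genes, with 1, 6 and 2 genes at an unadjusted p under 0.05 by edgeR (4.1%, 10.4% and 7.29% of all genes). With the replicate number as a block, 398 of all genes were called in si47 against si45 in place of 24, and 0 of the 76. MRPS14 had the lowest p in si47 against si45, with a log2 difference of 0.35 and an adjusted p of 0.3. The calls under si47 are therefore not shown to differ from the other siRNAs.

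The 3 genes of the MRPS18 family encode related proteins that occupy different places, MRPS18A in the large subunit and MRPS18B and MRPS18C in the small one. MRPS18A was at 39.8, 37.4, 39.5 and 32.3 CPM in siNTC and at 26.7, 27.4, 34.6 and 26.6 CPM under si47. MRPS18B was at 127.0, 124, 164 and 160.5 CPM in siNTC and at 105.5, 116, 134 and 119.9 CPM under si47. In both, si47 replicate 3 was the highest of its group and overlapped the controls. MRPS18C was at 67.0, 67.4, 73.0 and 88.5 CPM in siNTC and at 69.6, 82.2, 74.1 and 89.1 CPM under si47, with overlapping ranges. The log2 fold changes under si47 were -0.37 (SE 0.15, adjusted p = 0.12), -0.28 (SE 0.101, adjusted p = 0.0814) and 0.09 (SE 0.104, adjusted p = 0.661), and none of the 3 passed the test.

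Proteins of the mitochondrial ribosome that carry other names were followed as a list of 5. DAP3, a GTP-binding protein of the small subunit, rose in the mean of the siRNAs, and PTCD3, CHCHD1, AURKAIP1 and GADD45GIP1 did not pass the test, with log2 fold changes of -0.10, 0.09, -0.09 and 0.02. The list thus had 1 call of 5 for the mean and 1 of 5 under si47, against 7.14% and 9.74% of all genes. A list of 5 is too short to set against these shares. DAP3 was at 78.9, 77.4, 79.05 and 73.2 CPM in siNTC. It was at 102, 87.0, 73.9 and 94.96 CPM under si45, at 92.5, 109, 78.8 and 109 CPM under si46, and at 112, 112, 87.9 and 106 CPM under si47. Of the 12 knockdown libraries, 10 were above all controls, all 4 of si47 among them, and replicate 3 was the lowest of each siRNA. The log2 fold change was 0.33 for the mean (SE 0.0922, adjusted p = 0.0235) and 0.43 under si47 (SE 0.111, adjusted p = 0.00897). With any 1 siNTC library left out, the adjusted p for the mean was between 0.0563 and 0.0989, above the threshold.

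Factors that serve the mitochondrial ribosome were counted in the same fit. Of 15 mitochondrial translation factors tested of 16, 28 assembly and rRNA maturation factors of 30, and 22 genes of mitochondrial aminoacyl-tRNA synthesis, 0 were called by edgeR for the mean of the siRNAs, and 0, 1 and 2 had an unadjusted p under 0.05. Over all genes tested these shares were 7.14% and 20.4%. Their median log2 fold changes were 0.04, -0.05 and 0.00. MTIF2, an initiation factor of mitochondrial translation, had 0.13 (adjusted p = 0.478). Larger changes that also did not pass the test were those of GFM2 (-0.32, adjusted p = 0.297) and MTFMT (0.29, adjusted p = 0.379). For GFM2, 11 of 12 knockdown libraries lay below all controls and 1 above them.

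Mitochondrial transcription genes and their nuclear regulators gave 0 calls of 19 tested for the mean of the siRNAs, with 5 at an unadjusted p under 0.05, against 7.14% and 20.4% of all genes, and 1 call under si47, against 9.74%. For 19 genes these counts are near the background. ESRRA, a nuclear receptor that controls mitochondrial genes, rose under si47, with a log2 fold change of 0.83 (SE 0.239, adjusted p = 0.0216). It was not called under si45 (0.28, adjusted p = 0.733), under si46 (0.61, adjusted p = 0.195) or for the mean (0.57, adjusted p = 0.0807). The direct comparison of si47 with si45 did not pass the test either (adjusted p = 0.388). Counts of ESRRA were low, between 35 and 113 per library. It was at 6.89, 10.2, 6.62 and 11.3 CPM in siNTC and at 17.8, 13.6, 14.1 and 16.8 CPM under si47, without overlap. MYCN itself had a log2 fold change of 0.38 for the mean (SE 0.129) and an adjusted p of 0.0904, and it passed the threshold with DESeq2 (0.0137) and limma-voom (0.0336), with a range of 0.00658 to 0.232 over all alternatives. TFAM, the packaging and transcription factor of mitochondrial DNA, had -0.10 (adjusted p = 0.443) and NRF1 had -0.32 (adjusted p = 0.263), both singled out after their values were seen.

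The cytosolic ribosomal protein genes, which build the other ribosome of the cell, are set beside these. Of 87 tested, 1, 3 and 46 were called higher under si45, si46 and si47 and 0, 0 and 1 lower, and their median log2 fold changes were 0.11, 0.16 and 0.31. The gene called under si45 was RPS27L, and those called under si46 were RPL38, RPS18 and again RPS27L. Over all genes, 1.01%, 2.14% and 4.91% were called higher and 0.324%, 1.25% and 4.83% lower. For the mitochondrial ribosomal proteins the counts were 0, 0 and 3 higher and 0, 0 and 1 lower, with the medians of 0.04, -0.00 and 0.04 given above, and the 3 of 76 under si47 are near the share of all genes. The nuclear-encoded respiratory chain and ATP synthase subunits lay between, with medians of 0.07, 0.08 and 0.12 and 7 of 81 higher under si47. Median siNTC levels were 786 CPM for the cytosolic ribosomal proteins, 146 CPM for the respiratory chain and 58.1 CPM for the mitochondrial ribosomal proteins, and median standard errors under si47 were 0.0984, 0.0991 and 0.122. In direct comparisons of siRNAs, 0 of the 87 cytosolic genes were called in si46 against si45 or in si47 against si45. In si47 against si46, 1 was called (RPL14, lower). Over all genes these shares were 0.0282%, 0.169% and 0.0493%. At an unadjusted p under 0.05 by edgeR there were 0, 48 and 22, against 4.1%, 10.4% and 7.29% of all genes. The difference between the lists was not tested, and the 3 comparisons with siNTC share the same 4 control libraries.

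**Figure D5:**
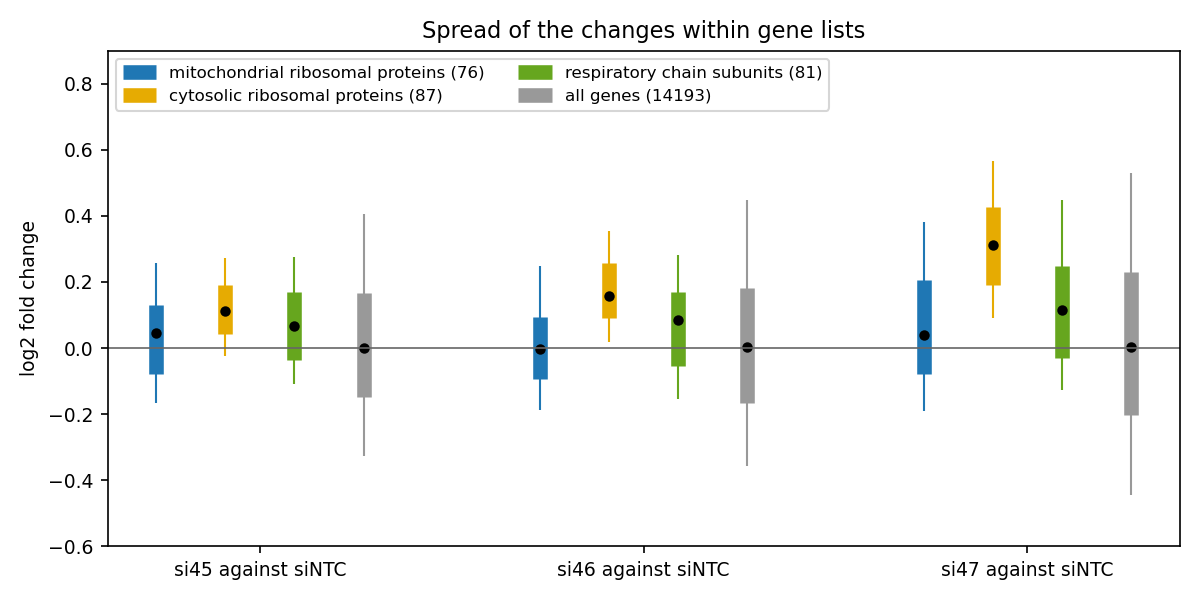
log2 fold change against siNTC for each siRNA in 4 gene lists, with the number of tested genes in brackets. Dots are medians, thick bars run from the lower to the upper quartile, and thin lines from the 10th to the 90th percentile over genes. Under si47 the dot of the cytosolic ribosomal proteins is at 0.31 and that of the mitochondrial ribosomal proteins at 0.04.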

How the data were processed

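RNA of 16 libraries of IMR32 cells, 4 for each of si45, si46, si47 and siNTC, was measured by 3' end sequencing. The authors deposited raw counts per gene, whole numbers that were not normalized. The submitters' processing notes name FastQC 0.11.7, STAR 2.7.2b, edgeR 3.36.0, limma 3.50.3 and GRCh38; the counter, the annotation, the use of strand and the handling of reads that match several genes are not given in the sources used here. Symbols for 58434 identifiers came from a gene name table, and positions from GENCODE v29 on GRCh38. Genes of the mitochondrial genome are not analysed here.

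Counts were fitted with edgeR 4.0.16 in R 4.3.3: filterByExpr (minimum count 10, minimum total 15), TMM, and 1 robust quasi-likelihood fit of 4 group means to the 16 libraries together, with Benjamini-Hochberg adjustment over all genes tested and a threshold of 0.05. CPM use TMM library sizes, and intervals are 95%. TPX2 was compared as log2(CPM + 1). Reads carry no known molecular identifiers, so the precision that counts give covers counting error only, and p-values measure the spread between these cultures. The pipeline was checked on simulated data. Each result was recomputed with DESeq2 1.42.0, limma-voom 3.58.1, upper-quartile or RLE scaling, other count filters, only the groups compared, a replicate block, and each library left out.

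The genes, lists and naming rule were chosen with earlier results of these data known. The rule named TPX2, genes called in any comparison, the 5 highest, 5 lowest, 5 most and 3 least abundant, those not tested, the MRPS18 trio, all mitoribosomal proteins with other names and up to 3 genes per further list. Every correlation between replicates with the same number was over 0.1 only for si45 and si47 (0.12 to 0.242). With siNTC the lowest correlations were 0.0188 to 0.0752. A library still correlated best with its own number in 8 of 8 comparisons for each pair of knockdown groups. Between siNTC and the knockdown groups it did so in 18 of 24. An effect shared by replicate number is therefore not excluded, and the fit of 4 group means leaves the number out. No pair of replicates agreed within sampling noise (chi-square per degree of freedom of at least 4.39).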

Additional observations from a re-analysis of the deposited data

Results flagged for a closer look

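In each group of 4 libraries, a value was picked out when its gap to the nearest other library was a larger part of the group's range than Dixon's critical value allows at the 95% level. Of 168 groups examined, 8 were picked out, where chance gives about 8.4. TPX2 was at 121 CPM in si45 replicate 3, against 79.35 to 85.1 CPM in the other 3 libraries of that siRNA.

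Of the others, 5 are mitochondrial ribosomal protein genes. MRPL12 and MRPS18A were high in the same library, si47 replicate 3, at 56.6 CPM against 35.99 to 38.9 CPM and at 34.6 CPM against 26.6 to 27.4 CPM. MRPL50 was at 30.8 CPM in si47 replicate 2, against 22.0 to 22.95 CPM. In siNTC replicate 2, MRPL32 was at 20.2 CPM against 14.4 to 14.75 CPM, and MRPL38, with at most 13 counts, was at 2.03 CPM against 0.52 to 0.641 CPM. GFM2, a recycling factor of mitochondrial translation, was at 12.4 CPM in si45 replicate 2 against 10.4 to 10.6 CPM. MARS2, the mitochondrial methionyl-tRNA synthetase, was at 5.64 CPM in si46 replicate 2 against 2.86 to 3.17 CPM.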

How the results depend on the processing

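The median log2 fold changes of the 76 genes moved by less than the spread between libraries (pooled SD 0.0526) in every alternative run, between 0.01 and 0.06 for the mean of the siRNAs. With si46 and between siRNAs, 0 of the 76 were called in every alternative run. The other counts of called genes moved. For the mean of the siRNAs, DESeq2 called 2, the replicate block 6 (4 higher, 2 lower), and leaving out 1 library gave 0 (without siNTC replicate 3 or 4) to 3 (without si45 or si47 replicate 3). With si45, DESeq2 called 2, no filter 1, the replicate block 2, and leaving out 1 library 0 to 2. With si47, limma-voom called 2, the fit of only the groups compared 2, the replicate block 12 (8 higher, 4 lower), and leaving out 1 library 1 (without si47 replicate 1 or 4, or siNTC replicate 3 or 4) to 6 (without si47 replicate 3). The replicate numbers are not shown to pair the knockdown libraries with siNTC. As a hint from the data, a library correlated best with its own number in 8 of 8 comparisons between siNTC and si45, 5 of 8 with si46 and 5 of 8 with si47, and in 8 of 8 for each pair of knockdown groups. With the block, the 12 genes called under si47 are 15.8% of the 76 against 15.5% of all genes, and the 6 called for the mean of the siRNAs are 7.9% against 12.8%. Over the whole table the block raised the count of called genes from 1014 to 1817 for the mean of the siRNAs, from 190 to 577, 482 to 1073 and 1382 to 2198 under si45, si46 and si47, and from 4 to 33, 24 to 398 and 7 to 108 in si46 against si45, si47 against si45 and si47 against si46. Leaving out 1 library gave 629 to 1388, 97 to 406, 252 to 579, 932 to 1664, 4 to 7, 10 to 147 and 2 to 23 in the same order. Log2 fold changes near 0 changed sign when single libraries were left out, running from -0.0138 to 0.0605 for GADD45GIP1, -0.0341 to 0.0626 for MRPL21, -0.0364 to 0.077 for MRPL51, -0.0507 to 0.101 for MRPS21, -0.263 to 0.176 for MRPS24 and -0.106 to 0.0343 for MRPS34. The cause was not tested. MRPL23, MRPL38, MRPL39, MRPL46, MRPL53, MRPS24 and MRPS28 have under 50 counts per library on average, which limits what can be detected for them.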

Other observations

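Deviations were taken in log2 CPM from each gene's mean over the 4 siNTC libraries, which centres the controls near 0. The median deviation of the 76 tested genes ran from -0.07 in siNTC replicate 2 to 0.11 in si47 replicate 4. The median over all genes, which the scaling holds near 0, lay between 0.00 and 0.03. Replicate 4 had the highest median of its group under si45 (0.11), si46 (0.06) and si47 (0.11), and replicate 3 had it in siNTC (0.04).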
